A study of Homo sapiens with 4 samples.

Results

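The 9 genes described here, ISG15, IFIT1, IFIT3, MX1, STAT2, IRF1, IRF9, IFI6 and IFIH1, are interferon-induced or interferon-signalling genes, chosen by name from the 28307 gene symbols of the count tables. All 9 symbols were found. They were measured in 4 polyA RNA libraries of excitatory neurons differentiated from the human induced pluripotent stem cell line i3N-WTC11. Of these, 2 libraries came from CRISPRi neurons, which received lentivirus carrying guide RNAs against a transposable element of the MIR family (chromosome 11), at an interval that the title and the design text give differently, and 2 came from Control neurons, which received the empty guide vector. All 4 carried dCas9-KRAB, a catalytically dead Cas9 fused to a repressor domain, driven by the CAG promoter from an intron of CLYBL. All 4 were also given lentivirus at 2 weeks of differentiation (multiplicity of infection about 3) and puromycin at 0.5 μg/mL for 4 days, and were collected 7 days after the virus. The guide vector is lentiGuide-puro, and the virus was packaged in 293T cells. The series therefore has no library of neurons without virus, so the levels below are those after transduction and selection, and what the virus itself changed cannot be measured. All libraries share 1 cell line, the labels give 2 guides an element, and no source used here ties a guide to a library.

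Interferons are secreted when receptors inside the cell, such as IFIH1 (MDA5), meet viral nucleic acid. Type I interferons bind the receptor pair IFNAR1 and IFNAR2, the kinases JAK1 and TYK2 phosphorylate STAT proteins, STAT2 among them, and these join IRF9 to form the factor ISGF3. ISGF3 binds the interferon-stimulated response element (ISRE) in the promoters of effector genes, while the signal of interferon gamma reaches genes through the gamma-activated site (GAS). Neurons are known to carry this pathway and to hold many of the effector genes at low levels at rest.

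Depth was uneven. The CRISPRi libraries held 44839748 and 41560282 gene counts, and Control replicates 1 and 2 held 944993 and 39325038. Control replicate 1 was thus 41.6 times shallower than the shallowest of the other 3, and a single count there equals 1.06 CPM (the counts of a gene per 1000000 counts of the library). The pan-neuronal list had counts for 14 of 14 genes, with summed levels of 22982 and 23779 CPM in the CRISPRi libraries and 20212 and 23143 CPM in Control replicates 1 and 2. Microglial and myeloid markers, of a cell type that expresses many interferon-induced genes, summed to 1.00 and 0.794 CPM in CRISPRi neurons, against 1.06 and 0.941 CPM in Control replicates 1 and 2. Of that list 8 of 14 genes had 0 counts in every library, among them TYROBP, ITGAM, P2RY12 and SPI1. The astrocyte list summed to 175 and 174 CPM in CRISPRi neurons, against 147 and 89.9 CPM in Control neurons, nearly all from SLC1A2, with GFAP at 0 to 4 counts a library. Endothelial markers summed to 1.20 and 1.56 CPM in CRISPRi neurons, against 2.12 and 1.53 CPM in Control neurons. Mesenchymal markers summed to 78.9 and 94.4 CPM in CRISPRi neurons, against 75.1 and 91.3 CPM in Control neurons, and pluripotency markers, mostly LIN28A, to 22.2 and 21.4 CPM in CRISPRi neurons, against 18.0 and 22.9 CPM in Control neurons. Cell cycle genes set Control replicate 1 apart, at 666 CPM summed over 20 genes against 129 and 136 CPM in CRISPRi and 135 CPM in Control replicate 2. In bulk libraries fewer cells of a type and less RNA per cell cannot be told apart.

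The promoters of the 9 genes differ in the element they hold. RefSeq promoters (GRCh38.p14, 250 bases before to 50 after the annotated start) were found for all 9, with 2 starts for IFIT3 and 3 for MX1, and were searched on both strands for the ISRE core GAAANNGAAA and for the GAS core TTCNNNGAA. The 6 effector and sensor genes ISG15, IFIT1, IFIT3, MX1, IFI6 and IFIH1 held the ISRE core, and MX1 also held a GAS core at its last start. IRF1 and IRF9, which are themselves transcription factors, held a GAS core and no ISRE core. STAT2 held neither in its window. Among all 35116 promoters, 3.57% held the ISRE core and 7.66% the GAS core. Counted per symbol with any matching window, as for the 9 genes, the shares were 4.38% and 9.38% of 27305 symbols. A match is a description of the letters and not evidence of binding.

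The stretches with the matches are shown because they hold the elements through which interferon signalling is known to act. They come from ISG15 (chr1:1013342-1013441, plus strand), IFIT1 (chr10:89392468-89392567, plus strand), IFI6 (chr1:27672263-27672362, minus strand) and IFIH1 (chr2:162318686-162318853, minus strand) for the ISRE core, and from IRF1 (chr5:132490844-132490943, minus strand) and IRF9 (chr14:24161156-24161255, plus strand) for the GAS core. Each is written 5′ to 3′ in the direction of its gene, with the matches in capitals.
ISG15: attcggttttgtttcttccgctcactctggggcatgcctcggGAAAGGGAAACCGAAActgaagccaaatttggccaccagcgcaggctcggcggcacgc
IFIT1: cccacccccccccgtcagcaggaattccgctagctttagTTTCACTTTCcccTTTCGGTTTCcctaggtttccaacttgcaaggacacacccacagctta
IFI6: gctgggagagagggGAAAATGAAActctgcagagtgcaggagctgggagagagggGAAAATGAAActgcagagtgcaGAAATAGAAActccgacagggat
IFIH1: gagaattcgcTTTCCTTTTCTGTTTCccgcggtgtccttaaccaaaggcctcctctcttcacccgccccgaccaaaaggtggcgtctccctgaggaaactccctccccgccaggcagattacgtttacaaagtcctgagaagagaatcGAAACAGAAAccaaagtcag
IRF1: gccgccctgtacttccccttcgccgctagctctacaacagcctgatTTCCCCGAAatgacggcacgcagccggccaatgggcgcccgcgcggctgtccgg
IRF9: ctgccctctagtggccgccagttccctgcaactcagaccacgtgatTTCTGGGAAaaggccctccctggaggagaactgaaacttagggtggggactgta
The matches in ISG15 overlap each other and lie at -113 to -98 from its start, and those of IFIT1 lie at -116 to -107 and -103 to -94 on the other strand. IFI6 held 3 matches between -156 and -84, of which the first 2 have identical letters. IFIH1 held 3, of which 2 overlap each other at -159 to -144 and the other lies at -21 to -12. MX1 held 1 match after its first start, at 12 to 21, none at its next and 1 at its last, where it overlaps the GAS core found there.

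**Figure D1:**
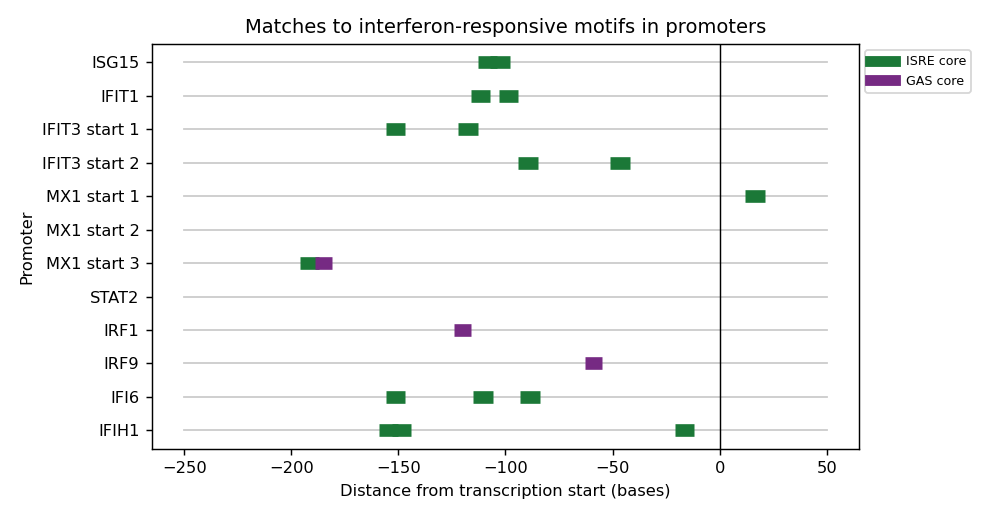
Positions of ISRE core (green) and GAS core (purple) matches in the promoter windows of the 9 genes; the horizontal axis is the distance from the annotated start in bases, and each grey line is 1 promoter. The 6 effector and sensor genes hold ISRE cores, MX1 also holds a GAS core, IRF1 and IRF9 hold a GAS core only, and STAT2 holds neither.

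The first question was how high these genes stood in transduced neurons. STAT2, IRF9 and IFI6 were readily detected, while IRF1 and the other effectors were below 1 CPM in every deep library and IFIH1 was not detected. STAT2, the ISGF3 subunit specific to type I and type III interferon signalling (chromosome 12, 56341598 to 56360107, minus strand), was at 24.5 and 23.8 CPM in CRISPRi neurons, against 16.9 and 26.2 CPM for Control replicates 1 and 2. The values of the 3 deep libraries lay close together, and the low value rests on 16 counts in Control replicate 1, where the level of the others predicts 23.5 (exact Poisson 95% interval of the count 9.15 to 26.0).

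IRF9, the DNA-binding subunit of ISGF3, was at 3.59 and 4.19 CPM in CRISPRi neurons, against 0 and 3.71 CPM for Control replicates 1 and 2. The counts behind these were 161 and 174 in CRISPRi neurons, against 0 and 146 in Control neurons, and the level of the deep libraries predicts 3.62 counts in Control replicate 1. Its only row in the files lies on a fix-patch contig of chromosome 14 (462243 to 467543, plus strand), not on the chromosome itself, where RefSeq places it at 24161265 to 24166565. How reads that match both copies were counted is unknown here, so the level of IRF9 is uncertain. IRF1, a transcription factor that interferon gamma induces (chromosome 5, 132481609 to 132490773, minus strand), was at 0.245 and 0.409 CPM in CRISPRi neurons, against 1.06 and 0.331 CPM for Control replicates 1 and 2. The high value is a single count in the shallow library.

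Among the effectors IFI6, a small membrane protein with antiviral activity (chromosome 1, 27666064 to 27672192, minus strand), stood apart at 4.66 and 5.03 CPM in CRISPRi neurons, against 5.29 and 5.09 CPM in Control replicates 1 and 2. It was above 0 in all 4 libraries, with 5 counts in Control replicate 1. ISG15, a ubiquitin-like protein that is attached to other proteins (chromosome 1, 1013497 to 1014539, plus strand), was at 0.736 and 0.698 CPM in CRISPRi neurons, against 0 and 0.763 CPM in Control neurons. IFIT1, which binds viral RNA lacking a host-type cap (chromosome 10, 89392546 to 89406487, plus strand), was at 0.825 and 0.553 CPM in CRISPRi neurons, against 0 and 0.559 CPM in Control neurons. For both genes the deep libraries held 22 to 37 counts each and overlapped between the groups.

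IFIT3, a binding partner of IFIT1 (chromosome 10, 89327997 to 89340968, plus strand), had 8 and 4 counts in CRISPRi neurons, against 0 and 4 in Control neurons. MX1, a dynamin-like GTPase that blocks several viruses (chromosome 21, 41420558 to 41459214, plus strand), had 6 and 4 counts in CRISPRi neurons, against 0 and 10 in Control neurons. With so few counts the deep libraries cannot be ordered for either gene. IFIH1, a sensor of long double-stranded RNA (chromosome 2, 162267074 to 162318684, minus strand), had 0 counts of 126670061 over the 4 libraries, which allows a level of up to 0.0237 CPM (3 counts of the total; the upper end of the exact two-sided Poisson 95% interval is 0.0291 CPM). For ISG15, IFIT1, IFIT3 and MX1 the level of the other 3 libraries predicts 0.120 to 0.692 counts in Control replicate 1, so their 0 there was not distinguishable from that level at this depth.

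**Figure D2:**
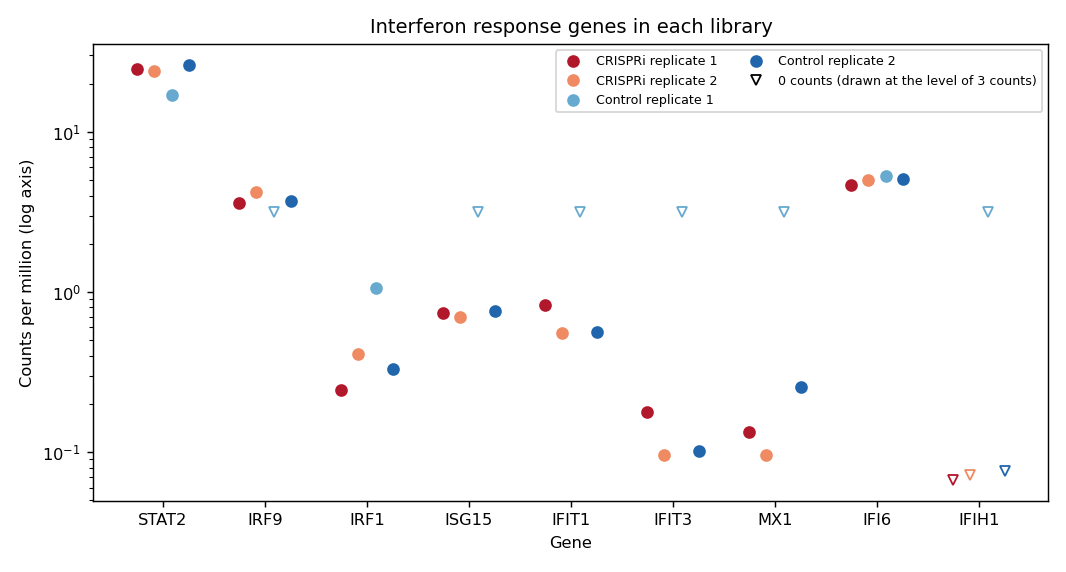
Level of each of the 9 genes in CPM (log axis), by library, the CRISPRi pair before the Control pair; each filled point is 1 library and an open triangle marks 0 counts, drawn at the level that 3 counts would give. STAT2 lies between 16.9 and 26.2 and IFI6 between 4.66 and 5.29, IFIH1 has 0 counts in every library, and the open triangles of Control replicate 1 sit high because 3 counts there equal 3.17 CPM.

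Levels of different genes were compared per kb of exon (GENCODE release 29), pooled over the counts of the 4 libraries. STAT2 came first at 7.31 CPM per kb and IFI6 next at 5.69 CPM per kb, above 64.4% and 59.8% of the 18909 detected symbols with a length. IRF9 was at 1.93 CPM per kb, ISG15 at 0.772 CPM per kb and IFIT1 at 0.140 CPM per kb. IRF1 at 0.0874, IFIT3 at 0.0478 and MX1 at 0.0391 CPM per kb closed the order, above 16.6%, 12.9% and 11.8% of detected symbols. Over the 3 deep libraries the ranges of IRF1 (0.0647 to 0.108 CPM per kb) and IFIT3 (0.0365 to 0.0676 CPM per kb) overlapped, as did those of IFIT3 and MX1 (0.0238 to 0.0630 CPM per kb). The other neighbours did not overlap there, although in Control replicate 1 IFI6 (6.12 CPM per kb) was above STAT2 (4.99 CPM per kb). On the authors' deposited FPKM the mean of the deep libraries was 5.53 for STAT2 and 5.88 for IFI6, so this pair takes the opposite order on that scale. IRF9 is listed at an FPKM of 0 in every library.

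The second question was whether CRISPRi neurons differed from Control neurons at these genes. No difference passed the test. Of the 9 genes 6 passed the filter on low counts and were tested by edgeR's quasi-likelihood test over 15708 genes, and 0 of the 6 had an adjusted or an unadjusted p under 0.05. The share called over all genes was 0.0255% (4 genes, all lower in CRISPRi). DESeq2 and limma-voom tested the same 6 genes and also called 0 of them.

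STAT2 averaged 24.2 ± 0.486 CPM in CRISPRi and 21.6 ± 6.58 CPM in Control (SD, n = 2 each), with a log2 fold change of 0.01 and a 95% confidence interval of -0.43 to 0.44. IFI6 averaged 4.84 ± 0.260 CPM in CRISPRi and 5.19 ± 0.145 CPM in Control (SD, n = 2 each), with a log2 fold change of -0.07 and an interval of -0.75 to 0.61. It was the only 1 of the 6 whose groups did not overlap, against 34.3% of all tested genes without overlap, 17.8% higher and 16.5% lower in CRISPRi. The nearest libraries, CRISPRi replicate 2 and Control replicate 2, were at 5.03 and 5.09 CPM. The value of IFI6 in Control replicate 1 rests on 5 counts (exact Poisson 95% interval of the count 1.62 to 11.7), so the small Control SD is not a measure of precision. The sign of STAT2 turned without Control replicate 1 (-0.11).

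The intervals of the other 4 were wide. The log2 fold change of IRF9 was 0.33 (interval -1.07 to 1.72). Without Control replicate 1 it was 0.07, with limma-voom 1.10 and with the replicate block 0.81. Without Control replicate 2 it was 9.82 (edgeR adjusted p = 0.0672), fitted against a single library with 0 counts, and is no bound. That of IFIT1 was 0.42 (interval -1.13 to 1.97), that of ISG15 was 0.05 (-1.43 to 1.53) and that of IRF1 was -0.19 (-1.90 to 1.52). These intervals do not exclude a doubling or a halving, so a difference of that size remains possible for each of these 4 genes. The adjusted p was 1.00 for each of the 6 (edgeR, Benjamini-Hochberg). The median log2 fold change of the 6 was 0.03, with 4 positive and 2 negative, and that of all tested genes was 0.01.

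**Figure D3:**
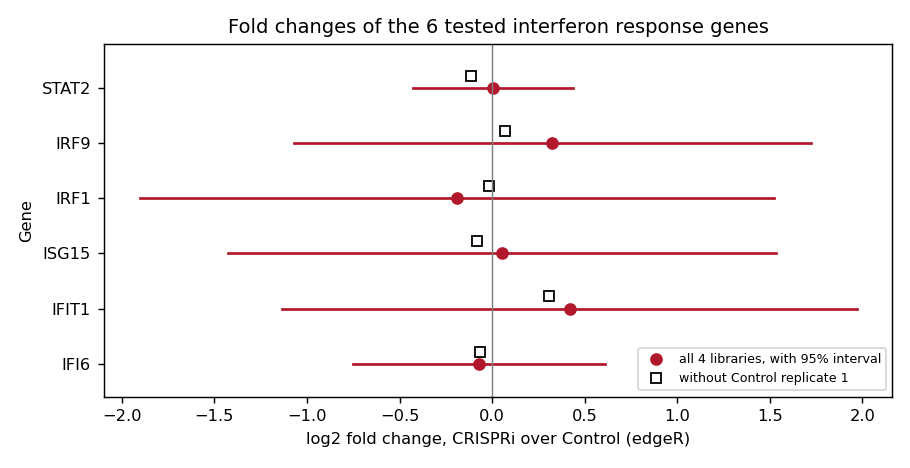
Log2 fold change of CRISPRi over Control (edgeR) for the 6 tested genes; filled points with bars are the estimate from all 4 libraries with its 95% confidence interval, and open squares the estimate without Control replicate 1. Every interval spans 0; the narrowest, of STAT2, covers -0.43 to 0.44 and the widest, of IRF1, covers -1.90 to 1.52.

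The deep libraries give narrower bounds on counting error alone, as the ratio of summed CRISPRi counts to Control replicate 2 counts, each per total. This compares those 3 libraries and not the conditions. The ratio was 0.922 for STAT2 (exact 95% interval 0.856 to 0.995), 1.04 for IRF9 (0.857 to 1.28) and 0.951 for IFI6 (0.802 to 1.13). For ISG15 it was 0.941 (0.599 to 1.51), for IFIT1 1.24 (0.750 to 2.13) and for IRF1 0.980 (0.491 to 2.06). For the untested IFIT3 it was 1.37 (0.414 to 5.81), and for MX1 0.455 (0.170 to 1.22). The interval of STAT2 alone excluded 1. Reads are not independent molecules, so these intervals cover counting error only.

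The rest of the pathway showed which of its steps were transcribed. Of 21 interferon ligand genes 16 had 0 counts in every library, IFNB1, IFNG and the lambda genes IFNL1, IFNL2 and IFNL3 among them. IFNA21 had 2 and 1 counts in CRISPRi neurons, against 0 and 2 in Control neurons, IFNW1 had 1 and 1 in CRISPRi neurons, against 0 and 2 in Control neurons, and IFNA5, IFNA7 and IFNE had 1 count in a single library. The alpha genes are near-identical copies, so the place of single reads among them is uncertain. Receptors were present for type I and type II interferon. IFNAR1 was at 56.1 and 54.7 CPM in CRISPRi neurons, against 68.8 and 37.9 CPM in Control replicates 1 and 2. IFNGR1, the ligand-binding chain for interferon gamma, was at 20.7 and 21.6 CPM in CRISPRi neurons, against 13.8 and 20.6 CPM in Control neurons. IFNGR2 was at 16.3 and 14.5 CPM in CRISPRi neurons, against 15.9 and 14.2 CPM in Control neurons, but its only row lies on an alternate contig of chromosome 21, so this level is uncertain as for IRF9. IFNLR1, the specific chain for lambda interferons, had 12 and 3 counts in CRISPRi neurons, against 0 and 6 in Control neurons.

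Downstream of the receptors all 6 genes of the JAK-STAT and ISGF3 list were above 1 CPM pooled over the libraries. JAK1 was at 117 and 121 CPM in CRISPRi neurons, against 93.1 and 117 CPM in Control neurons. TYK2 was at 9.86 and 10.7 CPM in CRISPRi neurons, against 13.8 and 11.8 CPM in Control neurons, with a log2 fold change of -0.24 (interval -0.67 to 0.20, edgeR adjusted p = 1.00). Its groups did not overlap, as was so for 34.3% of all tested genes, 16.5% being lower in CRISPRi. Among the 12 interferon regulatory factors and their cofactors the highest were the corepressor IRF2BP2, at 209 and 208 CPM in CRISPRi neurons, against 190 and 189 CPM in Control neurons, and its relatives IRF2BPL (135 to 142 CPM in all libraries) and IRF2BP1 (47.0 to 62.4 CPM in all libraries). IRF2BP2 had the smallest p of this list (log2 fold change 0.15, interval -0.02 to 0.33, edgeR adjusted p = 1.00). Its groups did not overlap either, and 17.8% of all tested genes were likewise higher in CRISPRi without overlap.

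The sensors fell into a detected and an undetected set. Of 15 genes 5 had 0 counts in every library, IFIH1, TLR3, TLR7, TLR8 and ZBP1. The helicases DHX9 (287 and 295 CPM in CRISPRi neurons, against 331 and 292 CPM in Control neurons), DHX36 (147 and 149 CPM in CRISPRi neurons, against 144 and 142 CPM in Control neurons) and DDX41 (58.7 and 59.9 CPM in CRISPRi neurons, against 66.7 and 60.6 CPM in Control neurons), which have other roles in RNA metabolism, were the highest. DHX36 has rows on chromosome 3 and on an alternate contig, and its counts are summed over both, so its level is uncertain. The adaptor MAVS, through which IFIH1 signals, was at 85.8 and 87.6 CPM in CRISPRi neurons, against 95.2 and 90.9 CPM in Control neurons. TRAF3, a ubiquitin ligase downstream of it, was at 132 and 126 CPM in CRISPRi neurons, against 144 and 134 CPM in Control neurons. TBKBP1, a partner of the kinase TBK1, was at 84.3 and 82.1 CPM in CRISPRi neurons, against 79.4 and 86.4 CPM in Control neurons.

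Of 60 effector genes 20 were above 1 CPM pooled over the libraries, and 9 had 0 counts in every library, among them MX2, OAS1, OAS2, OAS3 and OASL. The highest were ADAR, an RNA-editing enzyme with an interferon-induced isoform (364 and 350 CPM in CRISPRi neurons, against 385 and 363 CPM in Control neurons), LGALS3BP, a secreted glycoprotein (102 and 94.9 CPM in CRISPRi neurons, against 98.4 and 99.1 CPM in Control neurons), and EIF2AK2, the double-stranded RNA kinase PKR (49.6 and 47.3 CPM in CRISPRi neurons, against 65.6 and 47.2 CPM in Control neurons). Promoters were matched for 46 of the 60, and 31 of the 46 (67.4%) held the ISRE core in at least 1 window, against 4.38% of all 27305 symbols in the table. Among the entries not matched were IFIT2, MX2, OAS2, OASL and APOBEC3C. Of the 31 with the core 10 were above 1 CPM, with a median of 0.166 CPM, and of the 15 without it 6 were, with a median of 0.347 CPM. These are descriptions of a list made of known interferon-stimulated genes.

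The genes of ISG15 conjugation differed in level from ISG15 itself. UBE2L6, the conjugating enzyme, was at 129 and 132 CPM in CRISPRi neurons, against 126 and 133 CPM in Control neurons, or 73.1 CPM per kb pooled against 0.772 CPM per kb for ISG15. ARIH1, a ubiquitin ligase, was at 125 and 126 CPM in CRISPRi neurons, against 127 and 123 CPM in Control neurons. UBA7, the activating enzyme, had 2 and 5 counts in CRISPRi neurons, against 0 and 2 in Control neurons. Of 17 interferon gamma targets 1 was above 1 CPM, WARS1, a tRNA synthetase also made at rest, at 145 and 148 CPM in CRISPRi neurons, against 167 and 151 CPM in Control neurons. CIITA and NLRC5 are transactivators of MHC class II and class I genes. CIITA was at 0.650 to 0.959 CPM in CRISPRi, against 0 to 0.509 CPM in Control. NLRC5 was at 0.457 to 0.513 CPM in CRISPRi, against 0 to 0.381 CPM in Control. Both 0 values are from Control replicate 1, where a single count equals 1.06 CPM. Neither gene passed the test (log2 fold change 0.77, interval -0.78 to 2.32, for CIITA and 0.44, -1.06 to 1.94, for NLRC5). Of all tested genes 17.8% were likewise higher in CRISPRi without overlap. Of 19 negative regulators 15 were above 1 CPM, led by the phosphatases PTPN1 (209 and 208 CPM in CRISPRi neurons, against 220 and 205 CPM in Control neurons) and PTPN11 (144 and 144 CPM in CRISPRi neurons, against 141 and 142 CPM in Control neurons) and by the ubiquitin ligase TRIM27 (87.0 and 85.3 CPM in CRISPRi neurons, against 91.0 and 86.3 CPM in Control neurons), whose only row also lies off the primary chromosomes.

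**Figure D4:**
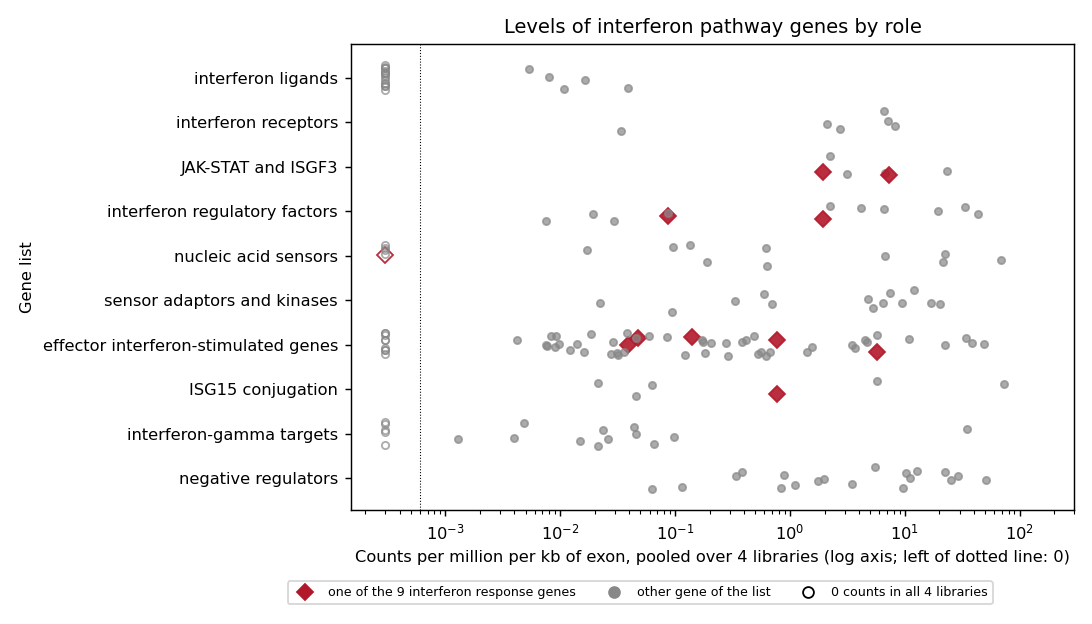
Level of each pathway gene in CPM per kb of exon (log axis), pooled over the 4 libraries and arranged by role; red diamonds are members of the 9 genes, grey circles the other genes, and open symbols left of the dotted line have 0 counts. STAT2 (7.31) and IRF9 (1.93) lie among the signalling genes, whereas ISG15, IFIT1, IFIT3 and MX1 lie at 0.772 or lower, IRF1 at 0.0874 and IFI6 at 5.69.

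Across the pathway genes other than the 9, 84 of 162 passed the filter and 0 passed the test in either direction, and 1 higher and 0 lower had an unadjusted p under 0.05 (edgeR), a share near that of all genes, of which 0.547% were higher and 0.414% lower at that level (0.961% in all). The share of all genes called at an adjusted p under 0.05 was 0.0255%, and DESeq2 and limma-voom called 0. The median log2 fold change was 0.01, with 45 positive and 39 negative, and 0.01 over all genes. By role, and with the 9 included, 0 of 21 ligands, 5 of 6 receptors, 6 of 6 JAK-STAT and ISGF3 genes, 9 of 12 regulatory factors, 9 of 15 sensors and 11 of 13 adaptors and kinases were tested, as were 28 of 60 effectors, 3 of 6 ISG15 conjugation genes, 3 of 17 interferon gamma targets and 18 of 19 negative regulators. Some genes stand in more than 1 list, and 0 were called in each. The list medians ran from -0.03 for the regulatory factors to 0.12 for the receptors, apart from 0.44 for the 3 interferon gamma targets. The gene with the unadjusted p under 0.05 was AZI2, an adaptor of TBK1, at 55.7 and 52.4 CPM in CRISPRi neurons, against 56.1 and 34.3 CPM in Control replicates 1 and 2 (log2 fold change 0.49, interval 0.01 to 0.96, edgeR adjusted p = 1.00). The smallest p of the effectors belonged to the cytidine deaminase APOBEC3C (log2 fold change -1.37, interval -4.04 to 1.29), and that of the negative regulators to the DNA exonuclease TREX1 (-1.62, interval -3.27 to 0.03), with an edgeR adjusted p of 1.00 for both.

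Some of these values rested on 1 Control library. With a Control library left out, the other is assumed to vary like the CRISPRi pair, which alone gives the spread. Without Control replicate 1, AZI2 and IFNAR1 passed as higher in CRISPRi (log2 fold changes 0.66 for AZI2 and 0.55 for IFNAR1, edgeR adjusted p = 0.00900 and 0.0119), where 0.659% of all genes were called, 0.437% higher and 0.222% lower in CRISPRi. Both were low in Control replicate 2, whereas Control replicate 1 lay near or above the CRISPRi libraries. Without Control replicate 2, which leaves only the shallow Control library, TRIM25, APOBEC3C, IL10RB and RNASEH2A passed as lower in CRISPRi, where 8.58% of all genes were called, 3.61% higher and 4.97% lower in CRISPRi. TRIM25, the ubiquitin ligase that activates the sensor RIG-I, was at 4.15 and 4.11 CPM in CRISPRi neurons, against 18.0 and 3.31 CPM in Control replicates 1 and 2. APOBEC3C was at 0.736 and 0.746 CPM in CRISPRi neurons, against 7.41 and 0.839 CPM in Control neurons. HERC5, the ligase for ISG15, had 11 and 0 counts in CRISPRi neurons, against 5 and 5 in Control neurons, where the other libraries predict 0.120 counts in Control replicate 1. The cell cycle markers were high in that same library, at 666 CPM summed, and their part in these values was not tested. The 9 genes summed to 22 counts in Control replicate 1, where the other libraries predict 33.6. STAT2 gave 16 of these, against 23.5 predicted, and IRF9 had 0, against 3.62 predicted. ISG15, IFIT1, IFIT3 and MX1 were predicted at 0.120 to 0.692 counts each, so the sum cannot show whether they were higher there.

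**Figure D5:**
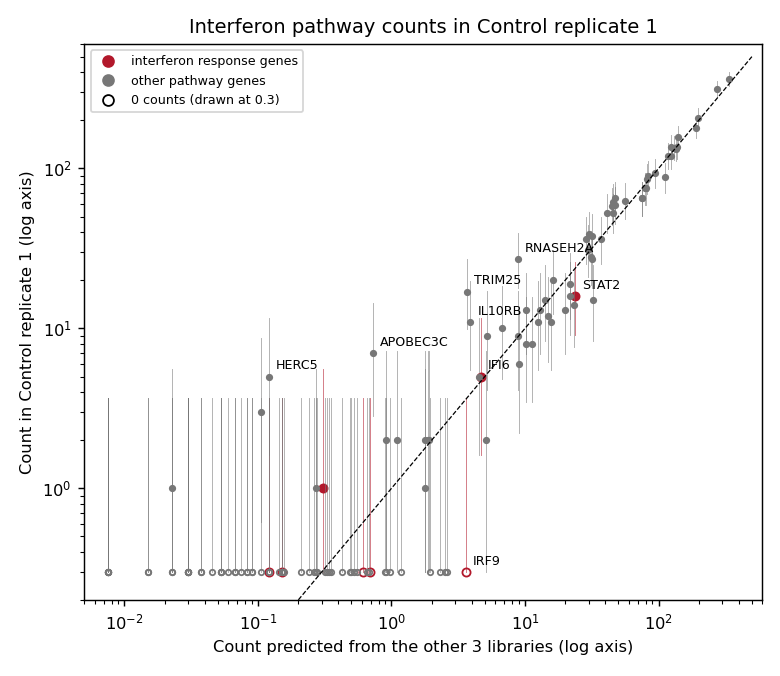
Count of each interferon pathway gene in Control replicate 1 against the count that the pooled level of the other 3 libraries predicts there (both log axes); red points are the 9 genes, grey points the other pathway genes, vertical lines exact Poisson 95% intervals, open points 0 counts, and the dashed line equality. IFI6 (5 counts, 4.65 predicted) and STAT2 (16 counts, 23.5 predicted) have intervals that reach the line, and TRIM25 (17 counts, 3.66 predicted) and APOBEC3C (7 counts, 0.729 predicted) lie above it.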

How the data were processed

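PolyA RNA of 2 CRISPRi and 2 Control neuron libraries was sequenced paired-end at 75 bp, per the labels. The authors deposited, for each gene row, a whole-number read count and a value on the scale of FPKM; the files have no header, so the FPKM unit was taken from the values. The submitters' processing notes name hg38, edgeR and limma; the aligner, the counting tool and any use of strand are not given in the sources used here, so reads of overlapping antisense genes cannot be told apart. Between 602 and 954 rows a library held a count and an FPKM of 0, so only counts were tested. Conversely, between 243 and 430 rows a library held a count of 0 and an FPKM above 0. A count of 0 is therefore not always an FPKM of 0, although IFIH1 was at 0 on both in every library.

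Counts were summed per symbol over all contigs and scaled to CPM on the library total, which ran from 944993 to 44839748. Lengths are unions of exons in GENCODE release 29. The comparison of CRISPRi with Control was fitted on group alone in R 4.3.3: genes passing filterByExpr, TMM factors, and the robust quasi-likelihood test of edgeR 4.0.16, called at a Benjamini-Hochberg adjusted p under 0.05. Intervals derive from the F statistic. The fit was tested on simulated counts, drawn with the same dispersion for every gene. No simulated library was set apart as Control replicate 1 is, so that test does not show how the fit behaves on these data. No 2 libraries were treated as duplicates (chi-square per degree of freedom 11.6 and 11.8 within the groups). The labels call the replicates biologically independent. With 2 against 2 no exact permutation test is given.

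The 9 genes, the role lists and the marker lists were chosen with earlier results of these data known. Besides the 9, the text names per list the 3 genes with the highest mean CPM over the deep libraries, the gene with the smallest p, any called gene, and every ligand with a count; TRIM25, IL10RB, RNASEH2A, HERC5, UBA7, IFNLR1, genes at 0 counts and the sensors of the closing paragraph were chosen with their values in view. Some genes of the lists are counted but not reported here by name. Alternatives were other scalings and filters, DESeq2 1.42.0, limma-voom (limma 3.58.1), a replicate block, primary chromosomes only, thinning to the depth of Control replicate 1, and each library left out.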

Additional observations from a re-analysis of the deposited data

How the results depend on the processing

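Of the 9 genes 0 were called under the 13 alternatives, but not all could be tested. Thinning left only STAT2, the 1 CPM filter 3 genes and primary chromosomes 5. IFIT3 was tested in 1 alternative (no filter) and MX1 in 3, and IFIH1 had no test in any. Of the other pathway genes 0 were called higher and 0 lower, and with a library left out 0 to 2 were called higher and 0 to 4 lower. Over all genes the 0 higher and 4 lower became 1 and 11 with DESeq2, 17 and 25 with the replicate block, and 1 and 8 after thinning. Lower genes became 2 with limma-voom. With a library left out they were 2 to 580 higher and 15 to 798 lower. The replicate numbers were not taken to pair the libraries, since no label says that they do. The correlation of same-numbered deviations was -0.03, but it rests on the shallow Control replicate 1 and cannot decide whether the libraries are paired.

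The sign of STAT2, 0.01 in the comparison of all 4 libraries, turned with total-count scaling (-0.0031), limma-voom (-0.076) and thinning (-0.030). With a library left out its log2 fold change lay between -0.11 and 0.54, and that of ISG15 between -0.083 (without Control replicate 1) and 7.39. That of IFIT1 lay between 0.24 and 7.34, that of IRF1 between -1.66 and -0.02 and that of IRF9 between 0.07 and 9.82. The upper values of ISG15, IFIT1 and IRF9 are fits against a Control library with 0 counts and are no bounds. With limma-voom IRF1 was at -0.96, and with DESeq2 IRF1, IFIT1, ISG15 and IRF9 were at -0.73, 0.75, 0.45 and 0.68. The cause was not tested. Of 69 fold changes computed for the 6 tested genes under an alternative, 64 had the sign and the call of the comparison above. On the authors' deposited FPKM the mean level of the deep libraries was 1.11 for ISG15, 5.53 for STAT2 and 0 for IRF9, against 0.778, 7.33 and 1.95 CPM per kb. Primary chromosomes alone give no value for IRF9, whose row lies on a contig. In Control replicate 1 a level of 3.17 CPM is 3 counts, so its depth limits most the genes near or under that level. Genes above it also rest on few counts there, 5 for IFI6 and 16 for STAT2.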

Other observations

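Of the 15 nucleic acid sensors, 7 are not described above. LRRFIP1, a binder of nucleic acid, was at 44.3 and 43.9 CPM in CRISPRi neurons, against 56.1 and 41.8 CPM in Control replicates 1 and 2. DDX58 (RIG-I), a sensor of RNA with a free end phosphate, was at 3.10 and 2.67 CPM in CRISPRi neurons, against 0 and 2.52 CPM in Control neurons. Its regulator DHX58 was at 0.379 and 0.409 CPM in CRISPRi neurons, against 0 and 0.280 CPM in Control neurons. The DNA-binding IFI16 was at 0.558 and 0.529 CPM in CRISPRi neurons, against 0 and 0.585 CPM in Control neurons, and AIM2 at 0.937 and 0.770 CPM in CRISPRi neurons, against 0 and 1.20 CPM in Control neurons. TLR9, an endosomal receptor for DNA, was at 0.468 and 0.241 CPM in CRISPRi neurons, against 0 and 0.407 CPM in Control neurons. CGAS, the enzyme of cytosolic DNA sensing, had 0 and 5 counts in CRISPRi neurons, against 0 and 3 in Control neurons. CGAS was not tested, and the other 6 did not pass the test with all 4 libraries.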
